A study of Homo sapiens with 6 samples.

Results

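The nuclear genes that encode the subunits of the oxidative phosphorylation complexes were compared between PC-9 cells with and without knockdown of IFITM3. PC-9 is a human lung adenocarcinoma line that depends on mutant EGFR. The 3 shIFITM3 samples stably expressed a hairpin against IFITM3, whose product is induced by interferon and hinders viral fusion, and the 3 shControl samples a control hairpin (named ShEV in the count table); medium and serum were shared and no drug is named in the labels. The sources used here do not say how many hairpins were used or whether the lines were clones or pools. The labels call the samples biological replicates without naming separate cultures, so p-values measure the spread between these samples. Members were chosen by symbol: NDUFA, NDUFB, NDUFC, NDUFS and NDUFV genes with a number, the 4 SDH genes, UQCR genes, COX4 to COX8 subunits and ATP5 genes. Of 26485 rows 93 matched, and 9 of these were left out as 3 antisense rows, 2 read-through rows, 2 pseudogenes and 2 genes now named as assembly factors, which left 84 genes. Symbols are given as the table has them, and 17 of the 84 are older symbols, among them those of the ATP5 genes.

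Oxidative phosphorylation takes place in the inner mitochondrial membrane. Complex I oxidises NADH and complex II succinate, both pass electrons to ubiquinone, complex III hands them to cytochrome c and complex IV to oxygen, and the proton gradient that builds up drives the ATP synthase, complex V. Complexes I, III, IV and V combine nuclear-encoded subunits with a few encoded by mitochondrial DNA, while complex II is wholly nuclear-encoded. None of 13 mitochondrially encoded subunit genes has a row in the table, so only the nuclear part was analysed here.

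Total counts were between 21342028 and 27493145 in 5 libraries and 77228760 in shControl replicate 2. IFITM3 itself was at 57.0, 60.5 and 62.7 CPM (counts scaled to TMM-adjusted library size) in shControl and at 10.4, 12.9 and 9.75 CPM in shIFITM3, so the libraries go with their labels. Of 8 epithelial markers, EPCAM, KRT8, KRT18, KRT19, CDH1 and CLDN4 were expressed, while NKX2-1 and NAPSA, which mark lung adenocarcinoma, were under 0.3 CPM on average in each group. The summed level of the 8 was 7348 to 7441 CPM in shControl and 5996 to 6220 CPM in shIFITM3; KRT8 (-0.50 on the log2 scale), KRT18 (-0.29) and CDH1 (-0.60) fell, and CLDN4 (0.45) and EPCAM (0.09) rose. Summed levels of 14 leukocyte, endothelial and fibroblast markers were 76.4 to 83.4 CPM in shControl and 88.7 to 97.7 CPM in shIFITM3, most of it from CD68, with DCN and LUM at 0 counts in all 6 libraries. Of the 5 tested, KDR (3.03, at 0.347 and 2.69 CPM on average), CDH5 (1.68), COL1A1 (0.29) and CD68 (0.20) rose and PECAM1 (-1.66) fell, so the endothelial markers went both ways. The part of either marker list in the results was not tested. In bulk RNA, fewer cells of a type and less RNA per cell cannot be told apart.

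The subunit genes were lower in knockdown cells, by a small amount and across all 5 complexes. Of the 84 genes 78 had enough counts to be tested, and of these 51 fell and 0 rose (edgeR quasi-likelihood F-test, p adjusted by Benjamini-Hochberg over all 14018 tested genes, threshold 0.05). The 51 are 65.4% of the tested members, where 28.4% of all tested genes were called lower, 27.7% higher and 56.1% in either direction. At an unadjusted p under 0.05 the edgeR test gave 53 falls and 1 rise, NDUFA2. The shares above are for adjusted p, and that of all tested genes at the unadjusted threshold is not given here. With DESeq2 48 members fell and with limma-voom 51, and 0 rose with either. Every member called by either method was thus lower, where of all genes called by DESeq2 and by limma-voom 49.9% and 50.3% were lower. These are shares of called genes, and the shares of all tested genes called lower by these methods are not given here. Fitted values were below 0 in 70 of the 78. Their median log2 fold change was -0.18, a ratio of 0.885, against a median of 0.00 over all tested genes, and the middle part of the members, from the lower to the upper quartile, ran from -0.29 to -0.08 where that of all genes ran from -0.23 to 0.29. The median absolute log2 fold change was 0.18 in the members and 0.25 in all genes. Only 6 of the 78 had a fitted level at least 25% lower, where 11.5% of all tested genes did. In a test against a 1.2-fold change 10 of the 78 fell and 0 rose. By that test 10.5% of all tested genes fell and 14.5% rose, so the members' share of falls was close to that of all genes.

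**Figure D1:**
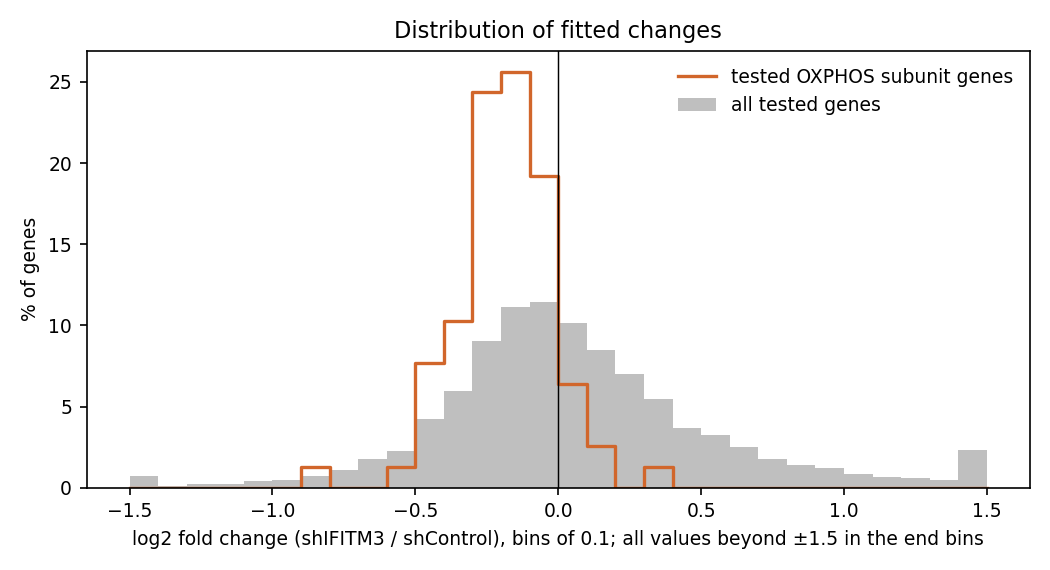
Share of genes (%) in each bin of fitted log2 fold change, shIFITM3 against shControl; grey bars are all 14018 tested genes and the orange line the 78 tested subunit genes. The subunit genes lie mostly between -0.5 and 0, with a median of -0.18, while all genes are centred on 0 with longer tails.

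The lower level was seen in each knockdown sample. The 84 genes took 0.832%, 0.830% and 0.843% of all counts in the shControl samples, and 0.708%, 0.718% and 0.725% in the shIFITM3 samples. Summed over the members, the level was 8380 ± 65.2 CPM in shControl and 7147 ± 85.3 CPM in shIFITM3 (SD, n = 3 each), which is 14.7% lower, and the groups did not overlap. The summed level of complex V was 19.9% lower, that of complex III 14.2%, complex II 13.5%, complex I 12.8% and complex IV 9.99%. Sums weigh each gene by its level, and in complex V ATP5B alone averaged 784 CPM in shControl and 592 CPM in shIFITM3. By the median log2 fold change of the tested members the order differed. It was -0.24 in complex II, -0.22 in complex III, -0.20 in complex V and -0.16 in complexes I and IV. No test was made of these sums or of the order of the complexes. In 53 of the 78 tested members every shIFITM3 sample lay below every shControl sample, as in 30.8% of all tested genes, and in 1, NDUFA2, every one lay above, as in 30.1%.

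**Figure D2:**
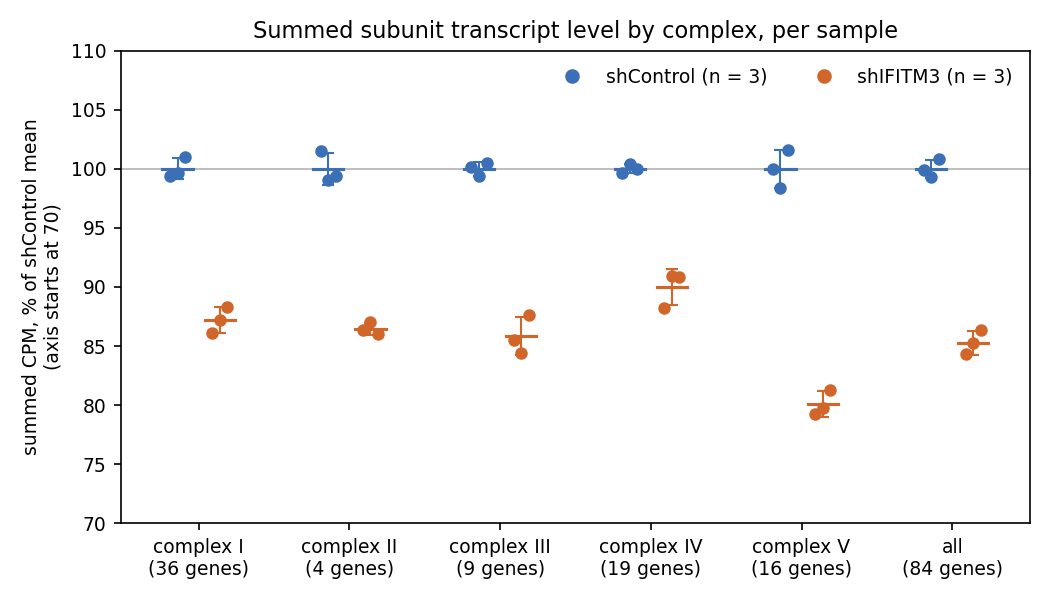
Summed CPM of the subunit genes of each complex in each sample, as a percentage of the shControl mean (axis from 70); points are samples, lines means and bars SD, n = 3 per group. All knockdown points lie below all control points in every complex, lowest for complex V and closest to control for complex IV.

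Promoters of these genes are known for sites of NRF1, of ETS factors such as GABPA, and of YY1. A RefSeq promoter (GRCh38.p14, 250 bases before to 50 after the start, the first start listed for a gene) was at hand for 67 of the 84 members. The core of the NRF1 site, GCGCA and GCGC with any 1 base between them, searched on both strands as were the others, was in 23.9% of them, against 6.28% of 27305 promoters of all genes and 11.5% of 10986 promoters of genes tested here. CCGGAAG, an ETS core, was in 28.4%, against 10.7% and 19.1%. AAGATGGC, a YY1 core, was in 16.4%, against 3.03% and 5.36%. Among 44 promoters of members that fell, the NRF1, ETS and YY1 cores were in 11, 15 and 8, and among 20 of members that did not pass they were in 4, 4 and 3. Such matches describe letters in a window and not binding. For each complex the fall with the smallest p whose promoter holds a match is printed here, to let the matched letters be seen in place: 250 bases before the start and the first 10 of the transcript, plus strand, 5′ to 3′, with matches in capitals. These are chr19:19515975-19516234 for NDUFA13, chr5:218070-218329 for SDHA, chr22:29767119-29767378 for UQCR10, chr19:35648073-35648332 for COX6B1 and chr1:111449214-111449473 for ATP5F1.
NDUFA13: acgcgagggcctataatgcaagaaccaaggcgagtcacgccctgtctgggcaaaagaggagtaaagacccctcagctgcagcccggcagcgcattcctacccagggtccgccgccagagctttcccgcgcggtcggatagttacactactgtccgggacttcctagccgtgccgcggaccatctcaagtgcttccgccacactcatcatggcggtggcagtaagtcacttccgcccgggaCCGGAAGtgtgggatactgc
SDHA: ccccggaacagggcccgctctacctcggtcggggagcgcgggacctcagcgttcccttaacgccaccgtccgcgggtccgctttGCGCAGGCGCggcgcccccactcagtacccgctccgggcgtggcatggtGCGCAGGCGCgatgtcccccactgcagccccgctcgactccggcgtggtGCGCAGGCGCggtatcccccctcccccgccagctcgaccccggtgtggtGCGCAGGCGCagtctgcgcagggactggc
UQCR10: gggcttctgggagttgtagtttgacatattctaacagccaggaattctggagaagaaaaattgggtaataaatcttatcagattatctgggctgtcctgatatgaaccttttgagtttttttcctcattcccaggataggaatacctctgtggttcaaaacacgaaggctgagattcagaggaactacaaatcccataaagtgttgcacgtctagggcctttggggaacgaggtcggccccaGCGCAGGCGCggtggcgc
COX6B1: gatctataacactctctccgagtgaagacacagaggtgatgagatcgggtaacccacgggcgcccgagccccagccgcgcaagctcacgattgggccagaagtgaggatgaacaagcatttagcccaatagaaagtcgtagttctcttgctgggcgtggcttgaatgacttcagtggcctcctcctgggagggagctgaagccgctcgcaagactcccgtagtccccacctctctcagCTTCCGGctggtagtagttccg
ATP5F1: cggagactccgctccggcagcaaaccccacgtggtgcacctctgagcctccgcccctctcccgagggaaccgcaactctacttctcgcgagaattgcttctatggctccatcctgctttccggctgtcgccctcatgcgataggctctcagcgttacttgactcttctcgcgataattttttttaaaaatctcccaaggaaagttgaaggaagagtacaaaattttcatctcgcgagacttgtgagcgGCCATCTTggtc
The SDHA promoter holds the NRF1 core 4 times, beginning 166, 117, 68 and 19 bases before the start, and that of UQCR10 once, 8 bases before it. The ETS core begins 10 bases before the start in NDUFA13 and 12 in COX6B1, and the YY1 core begins 2 bases before it in ATP5F1 and runs into the transcript. No matches of different motifs overlapped in these 5 promoters.

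Complex I is the largest complex, with a catalytic core that carries the flavin and the iron-sulfur clusters and a shell of accessory subunits. Of its 36 genes, all tested, 20 fell, 0 rose and 16 did not pass, with a median log2 fold change of -0.16. In the catalytic core 5 of 7 fell (median -0.26), and of 29 accessory subunits 15 fell (median -0.13). NDUFV1 (chromosome 11, 67606936 to 67612554, GRCh38), which binds NADH and the flavin, was at 195, 198 and 205 CPM in shControl and at 154, 154 and 147 CPM in shIFITM3. The groups lay well apart, with means of 199 ± 5.30 and 152 ± 4.15 CPM and a fitted log2 difference of -0.39 (SE 0.0369, adjusted p = 2.74e-09 in edgeR). NDUFS1 (chromosome 2, 206114817 to 206159444), the large iron-sulfur subunit next to it in the electron path, was at 94.7, 91.2 and 96.5 CPM in shControl and at 69.2, 69.8 and 70.9 CPM in shIFITM3. It too showed no overlap (-0.42, SE 0.0439, edgeR adjusted p = 1.41e-08), although its exons share sequence with other rows of the table on each strand. NDUFS3 (-0.36), NDUFS7 (-0.26) and NDUFS8 (-0.23), which belong to the arm that leads electrons to ubiquinone, also fell. NDUFS7, whose value is also the median of the core, was at 24.4, 26.5 and 26.0 CPM in shControl and at 17.4, 24.5 and 22.6 CPM in shIFITM3, with overlap, and without shIFITM3 replicate 1, the lowest sample, it was at -0.13 and did not pass (edgeR adjusted p = 0.18). NDUFV2 (-0.04, edgeR adjusted p = 0.403) did not pass.

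Among the accessory subunits NDUFA13 had the lowest value. NDUFA13 (chromosome 19, 19516225 to 19528198), also known as GRIM-19 from its link to cell death and STAT3, was at 63.1, 59.5 and 64.3 CPM in shControl and at 44.7, 43.9 and 42.9 CPM in shIFITM3. That is a fitted log2 difference of -0.50 (SE 0.0518, adjusted p = 1.39e-08 in edgeR) with the groups far apart, though a neighbouring gene, YJEFN3, shares exon sequence with it on the same strand. NDUFS6 (chromosome 5, 1801407 to 1816048), a zinc-binding subunit, was at 193, 197 and 204 CPM in shControl and at 163, 151 and 164 CPM in shIFITM3 (-0.31, SE 0.0391, edgeR adjusted p = 2.97e-07). NDUFA5 (-0.41), NDUFB3 (-0.35), NDUFA12 (-0.35), NDUFB7 (-0.32), NDUFB8 (-0.29), NDUFC1 (-0.29), NDUFA10 (-0.29), NDUFA9 (-0.26), NDUFB9 (-0.25), NDUFA11 (-0.24), NDUFB11 (-0.18), NDUFA6 (-0.13) and NDUFB5 (-0.11) fell as well. The 14 accessory members that did not pass were between -0.13 (NDUFB2) and 0.14 (NDUFA2). NDUFS5 was at 188, 177 and 183 CPM in shControl and 180, 178 and 181 CPM in shIFITM3 (-0.02, edgeR adjusted p = 0.601), so that within 1 complex some members lay well apart between the groups and others overlapped.

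**Figure D3:**
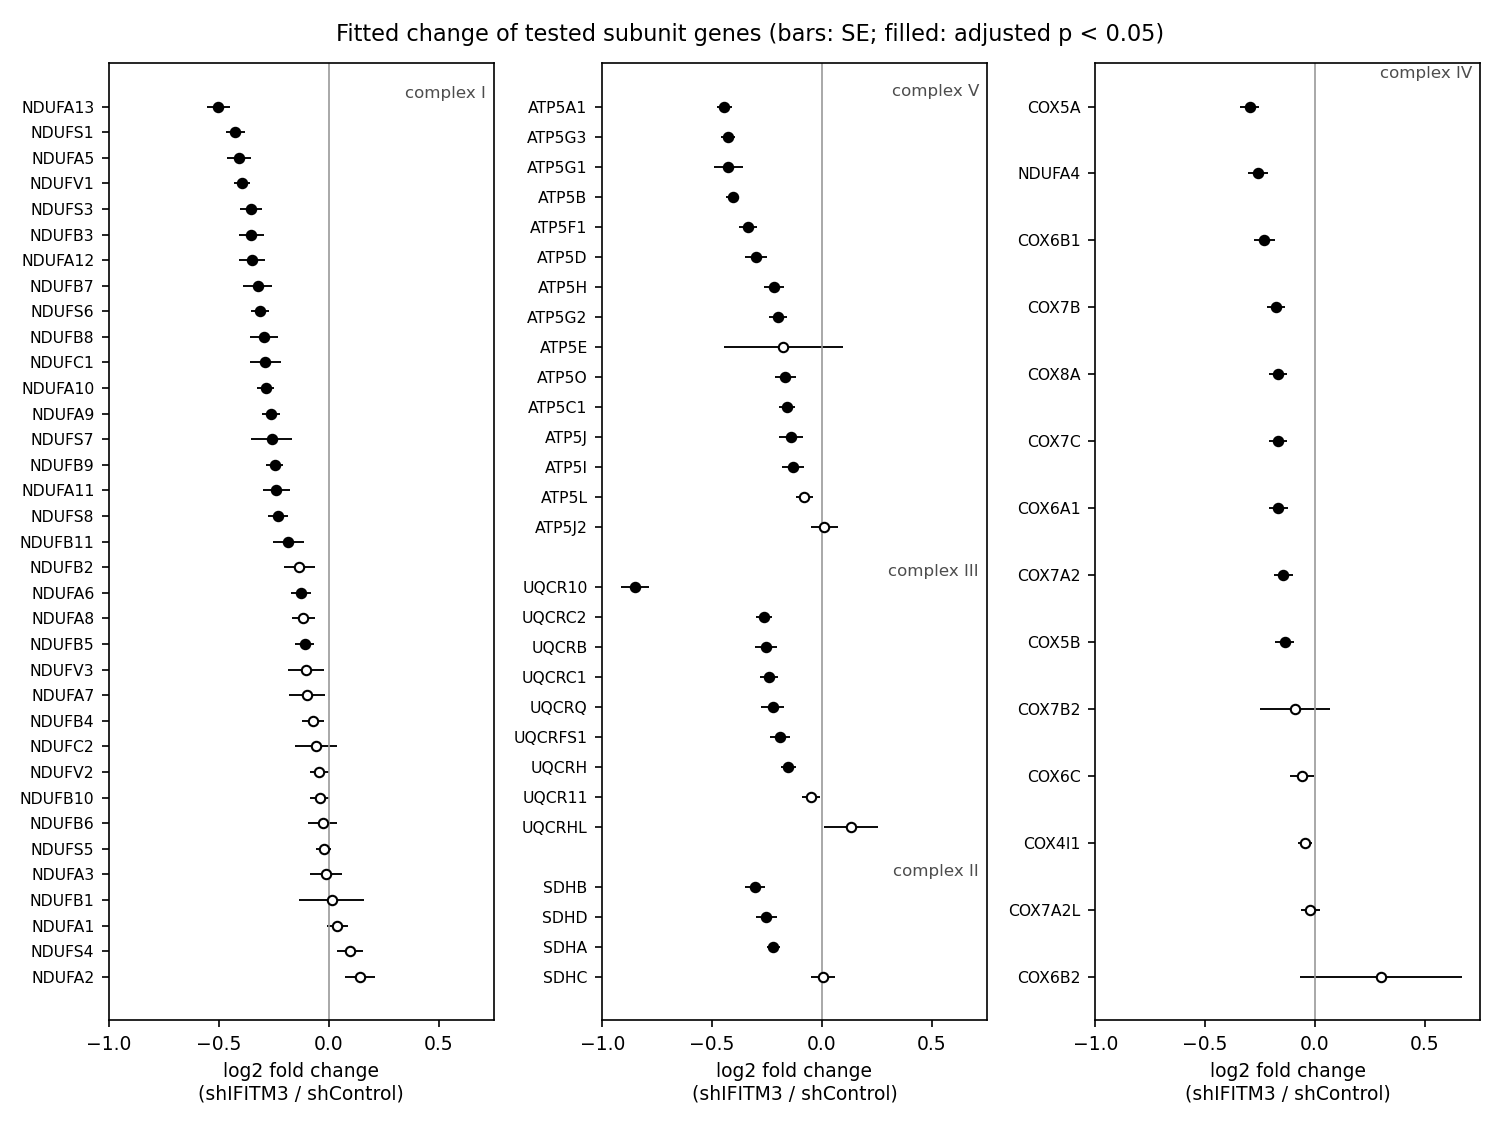
Fitted log2 fold change (shIFITM3 against shControl) of 77 of the 78 tested subunit genes by complex; bars are SE, filled points have an adjusted p under 0.05. Filled points are all below 0, UQCR10 stands lowest at -0.85, and the open points lie between -0.18 and 0.30.

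Complex II is succinate dehydrogenase, an enzyme of the citric acid cycle as well as of the respiratory chain. Of its 4 genes 3 fell (median -0.24). SDHA (chromosome 5, 218320 to 268746), the flavoprotein that oxidises succinate, was at 395, 388 and 393 CPM in shControl and at 333, 341 and 334 CPM in shIFITM3. The samples of a group lay within a few CPM of each other, so that this change of -0.22 on the log2 scale stood clear of the spread (SE 0.0298, edgeR adjusted p = 9.15e-07); SDHA has near-identical pseudogene copies, which makes its level uncertain. SDHB (chromosome 1, 17018722 to 17054032), the iron-sulfur subunit, was at 85.7, 89.6 and 85.0 CPM in shControl and at 72.3, 68.6 and 70.1 CPM in shIFITM3 (-0.31, SE 0.0449, edgeR adjusted p = 3.26e-06). The membrane anchors differed from each other in their values. SDHD (chromosome 11, 112086873 to 112095794) was at 88.5, 86.5 and 79.9 CPM in shControl and at 73.0, 71.8 and 69.0 CPM in shIFITM3 (-0.25, edgeR adjusted p = 8.06e-05), while SDHC was at 77.5, 66.5 and 75.9 CPM in shControl and 71.6, 72.8 and 74.6 CPM in shIFITM3 (0.00, edgeR adjusted p = 0.945). No test was made of the difference between these anchor genes.

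Complex III, the cytochrome bc1 complex, held the member with the lowest value of all. Of its 9 genes 7 fell and 0 rose (median -0.22). UQCR10 (chromosome 22, 29767369 to 29770413), a small accessory subunit near the iron-sulfur protein, was at 43.5, 45.3 and 43.0 CPM in shControl and at 23.3, 23.8 and 26.2 CPM in shIFITM3. Its means were 43.9 ± 1.21 and 24.4 ± 1.56 CPM (SD, n = 3 each), 44.5% lower, and the fitted log2 difference was -0.85 (SE 0.0635, adjusted p = 4.79e-11 in edgeR). The next lowest member of the complex was UQCRC2 at -0.26. UQCRC2 (chromosome 16, 21953361 to 21983660) and UQCRC1 (chromosome 3, 48599002 to 48609646), the core proteins on the matrix side, were at 204, 199 and 197 CPM and at 147, 155 and 159 CPM in shControl. In shIFITM3 they were at 165, 164 and 171 CPM and at 128, 134 and 129 CPM, with edgeR adjusted p of 9.3e-07 and 1.66e-05. UQCRB (chromosome 8, 96222947 to 96235545), a ubiquinone-binding subunit, was at 139, 131 and 133 CPM in shControl and at 118, 101 and 119 CPM in shIFITM3 (-0.25). UQCRQ (-0.22), the Rieske iron-sulfur protein gene UQCRFS1 (-0.19) and UQCRH (-0.15), the hinge protein, fell. UQCR11 did not pass (-0.05, edgeR adjusted p = 0.344). UQCRHL (0.13, edgeR adjusted p = 0.368), an intronless near-copy of UQCRH, was at 23.0, 14.7 and 22.6 CPM in shControl and at 21.6, 19.9 and 22.8 CPM in shIFITM3; reads of this pair are hard to assign, and shControl replicate 2, the deepest library, stood lowest for it.

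**Figure D4:**
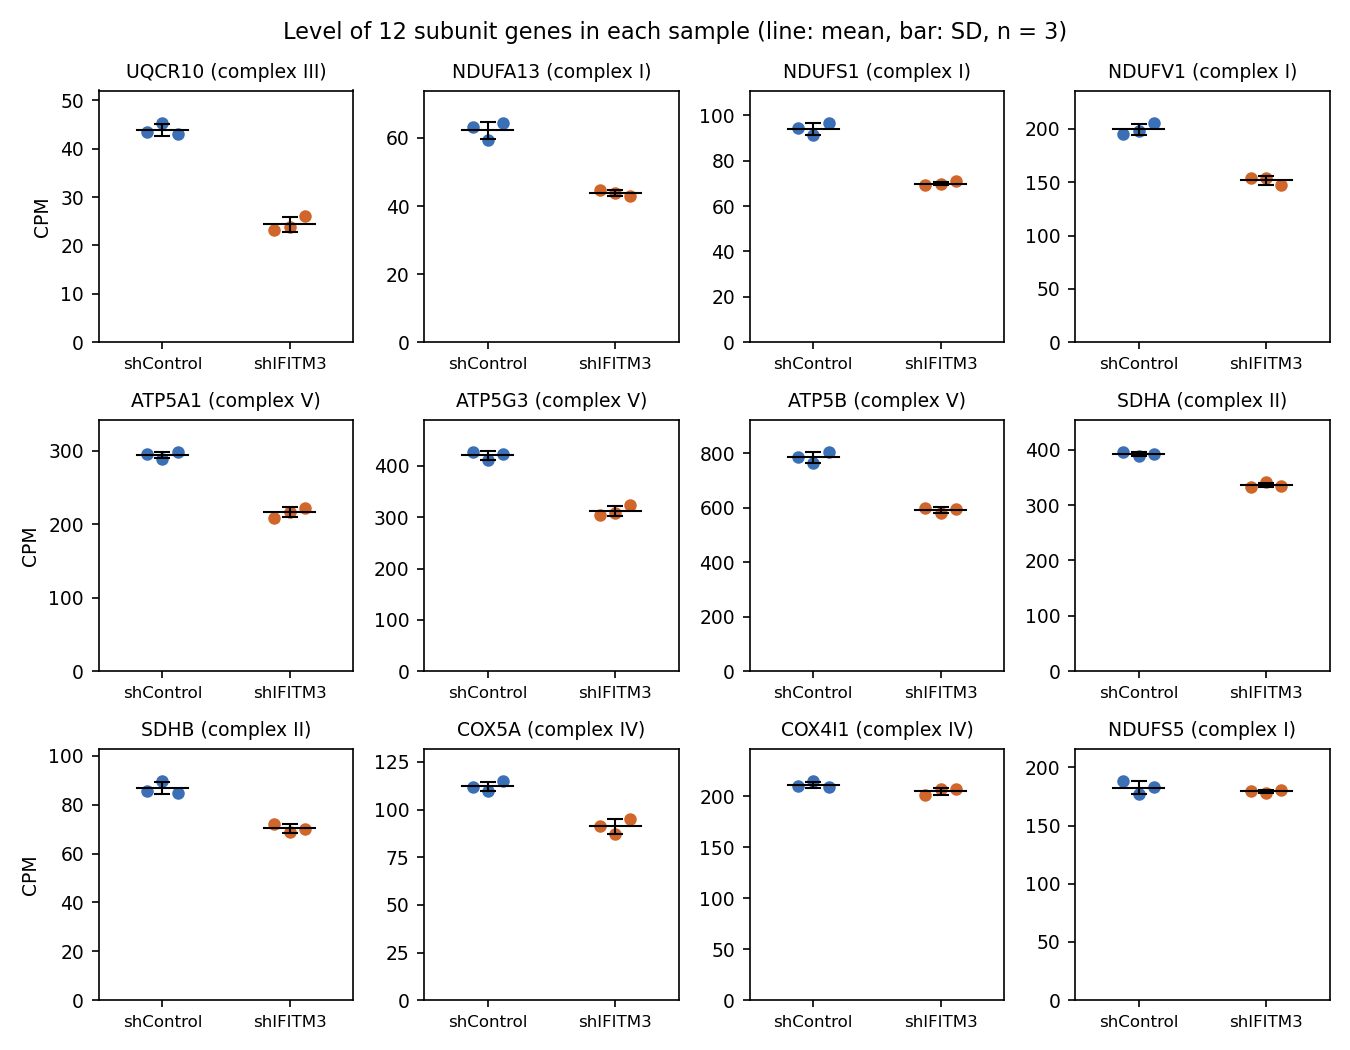
CPM of 12 subunit genes in each sample; points are samples, lines means and bars SD, n = 3 per group, axes from 0. The groups are apart in the first 10 panels, with the widest gap for UQCR10, and nearly level in COX4I1 and NDUFS5.

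Complex IV, cytochrome c oxidase, had the smallest difference in its summed level. NDUFA4 and NDUFA4L2, named after complex I, are counted here, since the NDUFA4 protein belongs to complex IV and RefSeq now names NDUFA4L2 as COXFA4L2. Of the 12 common subunit genes 9 fell and 0 rose (median -0.17). COX5A (chromosome 15, 74919791 to 74938073) was at 112, 110 and 115 CPM in shControl and at 91.5, 87.0 and 94.9 CPM in shIFITM3 (-0.30, SE 0.0433, edgeR adjusted p = 2.79e-06), without overlap. NDUFA4 was at 112, 113 and 119 CPM in shControl and at 90.7, 97.7 and 99.1 CPM in shIFITM3 (-0.26, edgeR adjusted p = 2.28e-05). COX6B1 (chromosome 19, 35648323 to 35658782), which faces the intermembrane space, was at 121, 129 and 125 CPM in shControl and at 102, 117 and 101 CPM in shIFITM3 (-0.23, edgeR adjusted p = 0.000309). For COX6B1 the gap between the groups was small beside the spread in shIFITM3. COX7B (chromosome X, 77899468 to 77907376) was at 105, 105 and 101 CPM in shControl and at 89.2, 91.5 and 94.6 CPM in shIFITM3 (-0.18). COX8A (-0.17), COX7C (-0.17), COX6A1 (-0.17), COX7A2 (-0.15) and COX5B (-0.14) fell. COX4I1 (chromosome 16, 85799695 to 85807068), the ubiquitous form of the regulatory subunit 4, did not pass, at 210.0, 214 and 209 CPM in shControl and at 201, 207 and 206 CPM in shIFITM3 (-0.05, edgeR adjusted p = 0.263); its ranges lay close to each other without overlapping. COX6C (-0.06) and COX7A2L (-0.02), the latter a supercomplex factor, did not pass either.

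The isoforms of complex IV subunits that are restricted to certain tissues or conditions were absent or at low levels, with COX7B2 the highest. COX4I2, COX6A2 and COX8C were listed at 0 in all 6 libraries, where a count of 0 allows 3 counts, or 0.141 CPM in the shallowest. COX7A1 had 2 to 12 counts per library and NDUFA4L2, induced by hypoxia in many cells, 2 to 36 counts, at most 0.467 CPM, and neither was tested. COX6B2 was at 1.04, 0.779 and 0.656 CPM in shControl and at 0.545, 1.26 and 1.17 CPM in shIFITM3 (edgeR adjusted p = 0.51). COX7B2 was at 6.03, 4.52 and 4.49 CPM in shControl and at 4.63, 4.95 and 4.31 CPM in shIFITM3 (edgeR adjusted p = 0.658). Both overlapped between the groups, and no switch between isoforms was detectable at this depth.

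Complex V is the ATP synthase. Of its 16 genes 15 were tested, 12 fell and 0 rose (median -0.20). In the F1 part, which makes ATP, 4 of 5 fell. ATP5B (chromosome 12, 56638175 to 56645984), the catalytic beta subunit, was at 785, 764 and 803 CPM in shControl and at 599, 580 and 595 CPM in shIFITM3. Its means were 784 ± 19.6 and 592 ± 10.0 CPM, which gives -0.41 on the log2 scale (SE 0.0284, adjusted p = 1.41e-11 in edgeR), and ATP5B and UQCR10 had the smallest p among the members. ATP5A1 (chromosome 18, 46080248 to 46104227), the alpha subunit that alternates with beta in the ring, was at 295, 289 and 298 CPM in shControl and at 209, 217 and 223 CPM in shIFITM3 (-0.44, SE 0.0339, edgeR adjusted p = 7.02e-11). The paired alpha and beta subunits thus had similar values, while the central stalk gene ATP5C1 was at -0.16 and ATP5D at -0.30, both falls. ATP5E had only 40, 115 and 60 counts in shControl and 32, 33 and 46 counts in shIFITM3 and did not pass (edgeR adjusted p = 0.609).

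The c-ring, whose rotation is driven by protons, is encoded by ATP5G1, ATP5G2 and ATP5G3, which share 1 mature protein, and all 3 fell. ATP5G3 (chromosome 2, 175176258 to 175181710) was at 426, 411 and 424 CPM in shControl and at 305, 309 and 324 CPM in shIFITM3 (-0.43, SE 0.0320, edgeR adjusted p = 5.15e-11). ATP5G1 had the same fitted value (-0.43, SE 0.0646) and ATP5G2 a smaller one (-0.20, SE 0.0409). In the peripheral stalk, which holds the F1 part in place, all 4 members fell. ATP5F1 (chromosome 1, 111449464 to 111462773), subunit b, was at 202, 192 and 213 CPM in shControl and at 154, 159 and 167 CPM in shIFITM3 (-0.33, SE 0.0411, edgeR adjusted p = 2.39e-07), and ATP5H (-0.22), ATP5O (-0.17) and ATP5J (-0.14) fell by less. Of the small membrane subunits ATP5I fell (-0.13, but -0.08 and not passing without shControl replicate 2), whereas ATP5L (-0.08, edgeR adjusted p = 0.0785) and ATP5J2 (0.01, edgeR adjusted p = 0.897) did not pass. ATP5L2 had 2 counts in shControl replicate 1, 2 in shIFITM3 replicate 3 and 0 elsewhere, and was not tested.

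Members that fell and members that did not pass had median transcript lengths of 1263 and 1324 bases and median GC contents of 48.0% and 47.5%, and 19 of 51 and 11 of 27 share exon sequence with another row. Their median control levels were 103 CPM and 63.5 CPM, and a higher count gives a smaller SE. These differences were not tested. Subunit transcripts were shorter than those of all tested genes, whose median length was 3333 bases. For 44 of the 84 members GENCODE release 29 names at least 1 pseudogene, 158 in all, so reads of these genes can be shared with copies. The calls of 7 falls ended when 1 library was left out: NDUFB5, NDUFB11, NDUFA6, NDUFS7, COX7A2, ATP5I and ATP5J, with edgeR adjusted p between 0.0502 and 0.259 in those fits. Without shControl replicate 2, the deep library, all of these 7 lost their call, which left 44 falls, and 45 members fell without shIFITM3 replicate 1. The other 44 falls kept their call without any 1 library.

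Of 5 tested subunits and carriers outside the naming rule 4 fell: cytochrome c (CYCS, from 360 ± 14.8 to 276 ± 6.75 CPM, -0.38), cytochrome c1 (CYC1, -0.36), the complex V subunit C14orf2 (-0.34) and the acyl carrier NDUFAB1 (-0.17). USMG5 did not pass (-0.03). Assembly factors, which build the complexes but are not part of them, fell in 7 of 16 tested cases for complex I, 5 of 10 for complexes II and III, 11 of 25 for complex IV and 1 of 4 for complex V, where 28.4% of all tested genes were lower; the count for complex V is no larger than that share. Complex IV assembly also had 2 rises, where 27.7% of all tested genes were higher. The assembly lists are small, and their counts were not tested against these shares. The complex II factors SDHAF1 (0.09), SDHAF2 (0.05), SDHAF3 (-0.04) and SDHAF4 (0.32, edgeR adjusted p = 0.0514) did not pass. The falls of the joint list were thus all for complex III: LYRM7 (from 28.0 ± 1.70 to 16.8 ± 0.739 CPM, -0.73, edgeR adjusted p = 2.27e-08), which matures the Rieske protein, UQCC2 (-0.55), BCS1L (-0.53), which inserts it, UQCC1 (-0.43) and UQCC3 (-0.34). For complex I, ACAD9 (-0.37), NDUFAF6 (-0.38), NDUFAF2 (-0.28) and ECSIT (-0.28) fell, and for complex V ATPAF1 (-0.35). For complex IV, LRPPRC (-0.40), which stabilises mitochondrial messenger RNA, the copper chaperone gene SCO1 (-0.60) and the heme synthesis genes COX15 (-0.58) and COX10 (-0.32) fell, while COX19 (0.27) and SURF1 (0.22), named after their values were seen, rose.

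Genes that copy and transcribe mitochondrial DNA fell in 8 of 15 tested cases and rose in 1, TFB2M (0.19), where, for this and the next 3 lists, 28.4% of all tested genes were lower and 27.7% higher. These lists are small, and their counts were not tested against those shares. Among the falls were the mitochondrial RNA polymerase POLRMT (-0.43), the packaging factor TFAM (from 182 ± 8.69 to 147 ± 7.16 CPM, -0.31), SSBP1 (-0.30) and TOP1MT (-0.29). Of 10 tested nuclear regulators of these genes 6 fell and the other 4 did not pass. The coactivator gene PPARGC1B was at 12.5 ± 0.556 and 7.21 ± 0.175 CPM (-0.79, SE 0.106, edgeR adjusted p = 7.98e-07), and YY1 (-0.40), ESRRA (-0.35) and NRF1 (-0.30) fell, while GABPA (0.11), GABPB1 (-0.14) and MYC (0.03) did not pass. PPARGC1A and ESRRG were at or near 0. Carriers of ATP, ADP and phosphate fell in 5 of 8 cases, led by SLC25A5 (-0.30), VDAC1 (-0.30) and VDAC3 (-0.35). Of 19 tested genes that feed or uncouple the chain, including ubiquinone synthesis, 12 fell and 1 rose. GPD2 (from 128 ± 4.17 to 82.3 ± 1.30 CPM, -0.64), the glycerol phosphate shuttle enzyme, AIFM1 (-0.40) and NNT (-0.36) fell, and the sulfide oxidation gene SQRDL rose (from 37.6 ± 1.36 to 54.0 ± 1.23 CPM, 0.52). List medians ran from -0.34 to -0.08, where the median of all genes was 0.00.

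**Figure D5:**
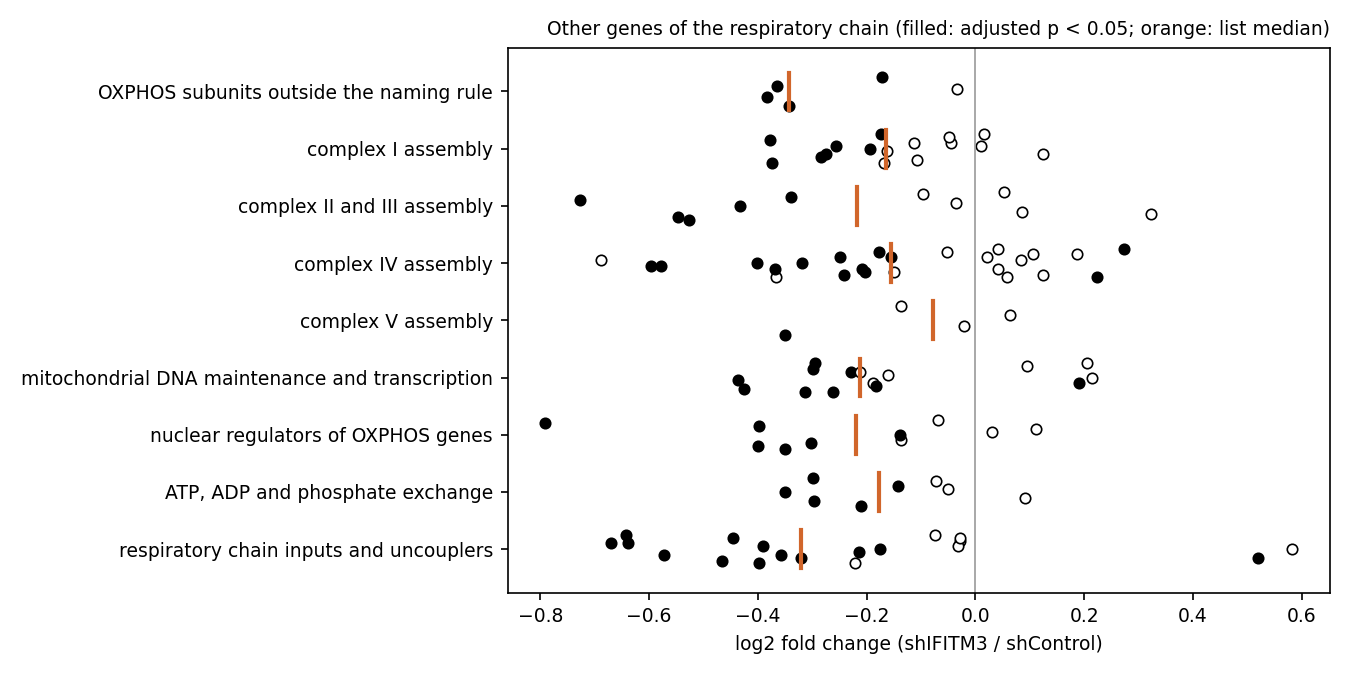
Fitted log2 fold change of tested genes in 9 lists around the respiratory chain; filled points have an adjusted p under 0.05 and orange marks are list medians. All 9 medians lie below 0, with PPARGC1B the lowest filled point and SQRDL the highest.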

How the data were processed

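Raw read counts per gene were deposited by the authors for all 6 samples in 1 table of 26485 symbols. The notes list HISAT2 2.2.1 and hg38, featureCounts of Subread 2.0.6, SAMtools 1.20, fastp 0.23.4 and FastQC 0.12.1 (per the submitters' processing notes); the sources used here give neither annotation nor strand setting. Of all deposited counts from 1 to 10, 79.9% were even, so counts are not independent and limits from a count of 0, which cover counting error only, may be too low.

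Counts were analysed with edgeR 4.0.16 in R 4.3.3: filterByExpr by group (14018 genes), TMM scaling (factors 0.995 to 1.006), glmQLFit on group and two-sided glmQLFTest, Benjamini-Hochberg adjusted over all tested genes, threshold 0.05. SE is the absolute log2 fold change over the square root of F. The fit was tested on simulated data. Alternatives used RLE, upper-quartile and total-count scaling, other filters, DESeq2 1.42.0, limma-voom (limma 3.58.1), a replicate block, left-out libraries, a thinned library, and GC content and length offsets from the longest coding GENCODE 29 transcript.

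Genes shown with every sample's value are, per complex, up to 4 falls with the smallest p, the highest level, and the restricted isoforms; NDUFS5, SDHC, UQCRHL and other members were added after their values were seen. From each further list up to 4 genes with the smallest p are named, others being marked or chosen after their values were seen. The members and lists were chosen with earlier results of these data known. Single values of 2 genes are not reported here.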

Additional observations from a re-analysis of the deposited data

How the results depend on the processing

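The number of members that fell was 51 and stayed between 48 and 53 under scaling by RLE, by the upper quartile or by the total, without a filter, with a strict filter (at least 50 counts in 3 samples), DESeq2, limma-voom, the thinned library, and the GC content and length correction, and between 44 and 54 when 1 library was left out. The median log2 fold change of the members ranged from -0.19 to -0.17 and, with 1 library left out, from -0.20 to -0.16; no called member changed direction. In the test against a 1.2-fold change, added after seeing the data, 10 members fell. With shControl replicate 2 thinned to the depth of the others, 1 member rose, NDUFA2 (0.18, edgeR adjusted p = 0.0317). NDUFB5 lost its call under total-count scaling, the strict filter, DESeq2, the thinned library and the GC content and length correction (adjusted p from 0.0598 to 0.222, with its value at -0.06 in the last), and NDUFB11 and ATP5I lost theirs in DESeq2 (0.0527 and 0.0572); the cause was not tested. Same-numbered samples did not deviate together (correlations of 0.0157, 0.0330 and 0.00634), so the numbers were not taken as pairs; with the replicate block 52 members fell and 0 rose, and with the block and the GC content and length correction 51. The 6 members that were not tested had few or no counts, and ATP5E and COX6B2, with low counts, had wide SE of 0.272 and 0.369. The cause of these low counts was not tested.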

Other observations

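Among rows left out of the subunit genes, ATP5S, now named DMAC2L, fell (-0.36, edgeR adjusted p = 0.0372) and ATP5SL, now named DMAC2, did not pass (-0.07). ATPIF1, now named ATP5IF1, encodes the inhibitor that stops the ATP synthase from running backwards. It rose slightly from 45.5 ± 3.79 to 50.4 ± 1.62 CPM (0.15, edgeR adjusted p = 0.0383), as 27.7% of all tested genes rose. Its groups overlapped, at 41.9, 45.2 and 49.45 CPM in shControl and 49.2, 49.8 and 52.3 CPM in shIFITM3. The sign was opposite to that of the 12 falls of complex V, and the difference in sign was not tested. The read-through rows NDUFC2-KCTD14 and ATP5J2-PTCD1 were listed at 0 in all 6 libraries. They share exon sequence on the same strand with NDUFC2 and ATP5J2, and how shared reads were counted is not known. A count of 0 therefore does not show that these transcripts are absent. The pseudogene UQCRBP1 rose from 0.475 to 0.932 CPM on average (edgeR adjusted p = 0.0431), a level near the limit of detection.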
